A study of Mus musculus with 144 samples.

Results

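The 10 genes of interferon defence and antigen presentation described here were followed in mouse liver across the day, in 3 RNA fractions and in animals without the clock gene Bmal1. The members were picked by name, as 10 of the 51912 gene rows of the count table. They comprise 5 interferon-induced genes (Ifit1, Ifit3, Irf7, Isg15 and Usp18), 3 genes of class I antigen presentation (H2-K1, H2-D1 and B2m) and 2 of class II presentation (H2-Aa and Cd74). Livers came from male C57BL/6J mice, wild type or Bmal1-/-, kept in a light-dark cycle with water and food always at hand, and the ages were not given in the sources used here. There were 4 series of 36 libraries, namely total, nuclear and polysomal RNA of the wild type and total RNA of Bmal1-/- mice, with 6 libraries per time point, at ZT2, 6, 10, 14, 18 and 22 (ZT, zeitgeber time, is counted in hours from the start of light). Nuclei were collected through a sucrose cushion and polysomes from a sucrose gradient run with cycloheximide, which holds ribosomes on the mRNA. Each library was made with the QuantSeq kit, which reads the 3′ end of polyadenylated RNA, so that a transcript gives about 1 read whatever its length and counts per 1000000 (CPM) need no scaling by length. The labels do not say that the 6 libraries of a group came from separate animals, so p-values measure the spread between these libraries.

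Interferons bind receptors on the cell surface, and JAK kinases and STAT transcription factors then carry the signal to the nucleus, where the interferon-stimulated response element and related sites switch on defence genes. Ifit1 encodes a protein that binds viral RNA, Ifit3 a relative of the same family, Irf7 is the transcription factor that amplifies type I interferon production, Isg15 is a ubiquitin-like protein attached to other proteins, and Usp18 removes Isg15 and damps receptor signalling. H2-K1 and H2-D1 encode heavy chains of class I molecules, which show peptides from inside the cell to CD8+ T cells, and B2m encodes the light chain they share. H2-Aa encodes a chain of the class II molecule I-A, which shows peptides from outside the cell to CD4+ T cells, and Cd74 is the invariant chain that guides class II molecules to the endosome. In liver, class I molecules are made by hepatocytes and other cells, whereas class II molecules are made chiefly by Kupffer cells (the liver macrophages), dendritic cells and B cells. In bulk liver RNA, fewer cells of a type and less RNA per cell cannot be told apart.

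Promoters of interferon-induced genes are known for response elements and those of antigen presentation genes for a Y box, so the promoter windows of the members were searched for these letters, and stretches of 6 of them, chosen because they hold a match, are shown. RefSeq (GRCm38.p6) gave a 300-base window around the transcription start for 8 of the 10 members, and 9 windows in all, since H2-K1 has 2. Each stretch runs from 160 to 21 bases before the start, 5′ to 3′ on the strand of the gene, and capitals mark matches, on either strand, to the core of the interferon-stimulated response element (GAAA, any 2 bases, GAAA) or to the Y box (ATTGG).
Ifit1: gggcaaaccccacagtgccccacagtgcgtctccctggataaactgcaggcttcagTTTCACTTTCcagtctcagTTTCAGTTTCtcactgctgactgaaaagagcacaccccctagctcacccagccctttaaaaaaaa
Ifit3: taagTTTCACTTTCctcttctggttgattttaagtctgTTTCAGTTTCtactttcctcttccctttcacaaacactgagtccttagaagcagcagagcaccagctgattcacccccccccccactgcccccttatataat
Isg15: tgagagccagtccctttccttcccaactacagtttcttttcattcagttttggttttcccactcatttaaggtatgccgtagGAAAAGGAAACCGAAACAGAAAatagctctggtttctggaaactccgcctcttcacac
B2m: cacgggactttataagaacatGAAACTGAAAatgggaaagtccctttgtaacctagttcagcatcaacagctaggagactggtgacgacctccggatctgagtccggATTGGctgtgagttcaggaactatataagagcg
H2-D1: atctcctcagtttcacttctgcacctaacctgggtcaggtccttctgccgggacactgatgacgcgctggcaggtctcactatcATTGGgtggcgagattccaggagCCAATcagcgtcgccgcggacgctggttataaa
H2-Aa: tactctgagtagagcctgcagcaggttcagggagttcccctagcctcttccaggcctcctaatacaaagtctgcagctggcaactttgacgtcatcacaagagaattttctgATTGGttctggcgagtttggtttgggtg
The stretches lie at chr19:34640729-34640868 (Ifit1, plus strand), chr19:34583369-34583508 (Ifit3, plus), chr4:156200839-156200978 (Isg15, minus), chr2:122147527-122147666 (B2m, plus), chr17:35262934-35263073 (H2-D1, plus) and chr17:34287844-34287983 (H2-Aa, minus). The response element core was found in 4 of the 8 members, against 3.44% of all 32851 windows of the same length: there were 2 matches in Ifit1, 2 in Ifit3, 3 that overlap each other in Isg15 and 1 in B2m. It was not found in the windows of Irf7, H2-K1, H2-D1 and H2-Aa. A Y box, a site common in class I and class II promoters, was found in 5 of the 8 members (B2m, H2-K1, H2-D1, H2-Aa and Ifit3) and in 37.4% of all windows. The STAT site core (TTCNNNGAA) was in 8.3% of all windows and the E-box CACGTG, to which BMAL1 with its partner CLOCK binds, in 7.15%, and neither set of letters occurred in a window of a member. No match overlapped a match to another of these motifs, and the window of Irf7 held none of the 4.

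Libraries held 5316601 to 9831142 counts in wild-type total RNA, 1662449 to 6620128 in nuclear, 2578048 to 13068044 in polysomal and 4379549 to 14281894 in Bmal1-/- total RNA. Hepatocyte markers dominated every series (Alb averaged 49840.3 CPM in wild-type total RNA), whereas the summed markers of B cells, dendritic cells, and T and NK cells stayed at or below 10.4 CPM in every library. Arntl, the gene of BMAL1, averaged 6.74 CPM in wild-type and 11.5 CPM in Bmal1-/- total RNA, and since a 3′ tag can lie outside the deleted part, this does not check the genotype. At ZT22, 4 libraries, 1 in each series, had Xist, an RNA of female cells, at 165.3 to 4362.9 CPM although the labels give male mice. Libraries numbered 1 to 3 also differed from those numbered 4 to 6, and the labels do not say what the numbers mean: in wild-type total RNA the summed markers of Kupffer cells and macrophages had a median of 540.7 CPM in numbers 1 to 3 and 340.5 CPM in numbers 4 to 6, and those of neutrophils 17.2 and 1.97 CPM. In the polysomal series the neutrophil sums ran the other way (2.29 and 15.5 CPM), and marker genes of lung, an organ these libraries should not hold, reached a summed 915.2 CPM among numbers 1 to 3. Results are therefore also given for each set of 3 numbers.

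The 10 members spanned about 3 orders of magnitude in wild-type total RNA. B2m stood at 3306 ± 617 CPM (SD, n = 36), H2-K1 at 869 ± 189 and H2-D1 at 366 ± 85.6. H2-Aa followed at 68.8 ± 40.3 CPM, Cd74 at 20.3 ± 10.4 and Irf7 at 18.9 ± 7.0. The other interferon-induced genes were lower still, with Isg15 at 12.8 ± 5.74 CPM, Ifit3 at 9.04 ± 3.4, Ifit1 at 5.77 ± 3.04 and Usp18 at 3.53 ± 1.87. The 3 class I genes did not overlap each other in any library of that series, apart from the highest H2-D1 value, 675.8 CPM, which lay above the lowest H2-K1 value, 642.4 CPM. By contrast, neighbours from Cd74 down to Usp18 did not differ beyond their spread between libraries. The mean Usp18 count was 27.3 per library in this series and the mean Ifit1 count 43.8, so counting error weighs on these genes more than on the class I genes, where it is negligible.

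**Figure D1:**
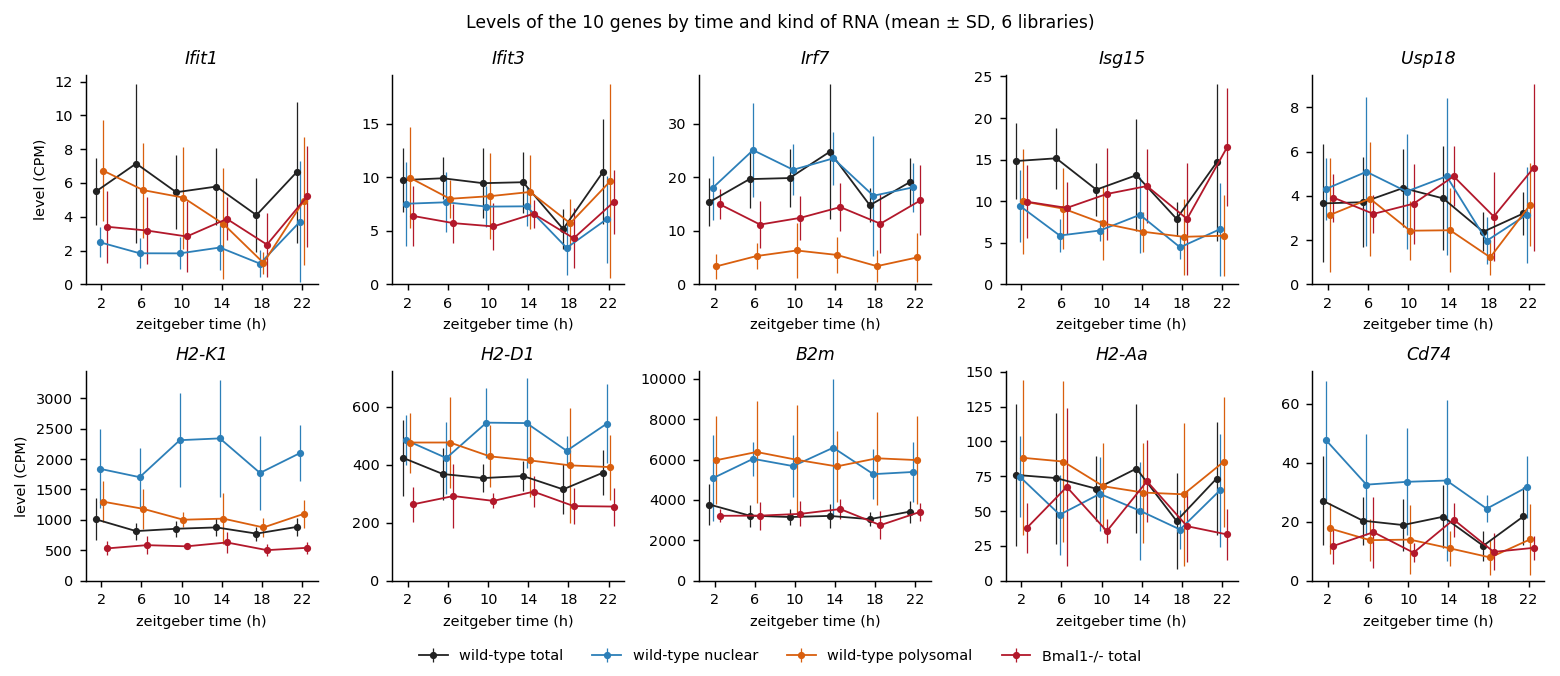
Mean level in CPM (y axis, ± SD over 6 libraries) of each of the 10 genes at 6 zeitgeber times in hours (x axis), with a line for each kind of RNA. H2-K1 in Bmal1-/- total RNA lies below wild-type total RNA at 6 of 6 times, and Irf7 is lowest in polysomal RNA. Ifit1, Ifit3, Isg15 and Usp18 have their lowest mean at ZT18 in 4 of 4 series (3 of 4 without Bmal1-/- numbers 5 and 6 at ZT18). H2-K1, H2-Aa and Cd74 have theirs at ZT18 in 3 of 4. The share of all genes lowest at ZT18 was not counted.

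Loss of Bmal1 went with lower levels of 7 of the 10 members in total RNA, and with a higher level of none: Ifit1, Ifit3, Irf7, H2-K1, H2-D1, H2-Aa and Cd74 fell, by 1.43-fold (H2-D1) to 1.83-fold (Ifit1). Levels were compared with edgeR's quasi-likelihood test as the mean of the 6 time points, with Benjamini-Hochberg adjustment over all 12082 genes tested and a threshold of 0.05. Of all genes tested, 22.4% were called lower and 21.7% higher, so 7 of 10 was above the background share for a fall and 0 of 10 below that for a rise. Each of the 7 was lower at 6 of 6 times. DESeq2 also called 7 members, and 9 of the 10 had an unadjusted p under 0.05.

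H2-K1 separated the genotypes most clearly. Its level ran from 642.4 CPM through a median of 821.0 to 1685.7 CPM in the 36 wild-type libraries, and from 340.3 through 552.4 to 947.1 CPM in the 36 Bmal1-/- libraries. In all, 30 of 36 Bmal1-/- libraries lay below the lowest wild-type library. The change was -0.74 (log2, SE 0.07, adjusted p = 1.34e-14 by edgeR). H2-D1, the other heavy chain, ran from 222.7 through 361.6 to 675.8 CPM in the wild type and from 132.5 through 273.8 to 470.6 CPM in Bmal1-/- livers, with 33 of 36 Bmal1-/- libraries below the wild-type median but only 5 below the lowest wild-type library. Its change was -0.51 (SE 0.08, adjusted p = 1.18e-07 by edgeR). B2m, which pairs with both heavy chains, had medians of 3169.8 and 3195.7 CPM, and its change of -0.13 (SE 0.06) missed the threshold with an adjusted p of 0.0714 by edgeR. It passed without the libraries numbered 1 or 5 (-0.17 and -0.19). The CPM values are scaled by library total only, whereas the test also used TMM scaling between libraries. With TMM scaling the B2m means were 3416.0 CPM in the wild type and 3151.0 CPM in Bmal1-/- livers. Without it they were 3306.0 and 3244.1 CPM. H2-K1 and H2-D1 are close in sequence to each other and to the H2-Q genes, and how reads shared between such copies were counted was not given in the sources used here, so the values of single class I heavy chains are uncertain.

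Among the interferon-induced genes, Ifit3 showed the most even fall. It ran from 3.14 through 8.53 to 20.03 CPM in the wild type and from 0.749 through 5.97 to 12.15 CPM in Bmal1-/- livers, with 32 of 36 Bmal1-/- libraries below the wild-type median, and the change was -0.69 (log2, SE 0.13, adjusted p = 1.04e-05 by edgeR). Ifit3 has a near-identical neighbour, Ifit3b, and the split of reads between them is uncertain. Irf7 ran from 7.34 through 18.2 to 48.9 CPM in the wild type and from 3.81 through 12.9 to 25.85 CPM in Bmal1-/- livers, a change of -0.60 (SE 0.12, adjusted p = 1.61e-05 by edgeR). The ranges of both genes overlapped between genotypes. Ifit1 ran from 1.13 through 4.52 to 13.2 CPM in the wild type and from 0.321 through 3.04 to 10.4 CPM in Bmal1-/- livers. Its change was -0.87 (SE 0.20, adjusted p = 0.000265 by edgeR), with 24 of 36 Bmal1-/- libraries below the wild-type median. Isg15 averaged 12.8 and 11.0 CPM, a difference of -0.32 (SE 0.16) that missed the threshold with an adjusted p of 0.0991 by edgeR, and passed without the libraries numbered 1 or 2 (-0.50 and -0.47). Usp18 averaged 3.53 ± 1.87 and 3.995 ± 2.08 CPM, a difference of 0.06 (SE 0.17, adjusted p = 0.819 by edgeR).

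Both class II genes fell. Cd74 ran from 6.79 through 17.1 to 51.0 CPM in the wild type and from 1.93 through 11.2 to 36.4 CPM in Bmal1-/- livers, a change of -0.74 (log2, SE 0.16, adjusted p = 0.000148 by edgeR). H2-Aa ran from 18.8 through 56.9 to 167.2 CPM in the wild type and from 6.96 through 34.1 to 150.3 CPM in Bmal1-/- livers, a change of -0.67 (SE 0.20, adjusted p = 0.0047 by edgeR). The spread of both genes within a genotype was wide, and 4 Bmal1-/- libraries lay below the lowest wild-type library in each case. The H2-Aa call was lost when the libraries numbered 3 were left out (-0.51, adjusted p = 0.0793 by edgeR). Of the 11 markers of Kupffer cells and macrophages, cells that make class II molecules, 10 were lower and 0 higher in Bmal1-/- livers, with a median change of -0.61. Their summed level ran from 214.1 to 1188.6 CPM in the wild type and from 155.0 to 636.0 CPM in Bmal1-/- livers, and none of the 11 was at 0. The markers of B cells and of dendritic cells summed to medians of 1.22 and 2.80 CPM in the wild type and 1.05 and 1.80 CPM in Bmal1-/- livers. The part of these cells in the class II result was not tested. Of the 4 markers of red blood cells 3 were lower in Bmal1-/- livers, with a median change of -0.997, and their part in any difference was not tested either.

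The 2 sets of replicate numbers gave different pictures for the members. The labels do not tie a Bmal1-/- number to the same number of the wild type, so the sets compared need not be matched. The difference between genotypes itself differed between numbers 1 to 3 and numbers 4 to 6 in 5 of the 10 members (Ifit1, Isg15, Usp18, H2-K1 and H2-Aa), against 17.3% of all genes tested in the same way by edgeR. Ifit1 averaged 3.84 ± 1.14 CPM in the wild type and 4.78 ± 2.18 CPM in Bmal1-/- livers among numbers 1 to 3 (SD, n = 18 each), a difference of 0.22 with an adjusted p of 0.378 by edgeR. Among numbers 4 to 6 it averaged 7.69 ± 3.15 and 2.17 ± 1.17 CPM, a fall of -1.99 with an adjusted p of 5.21e-09 by edgeR. Isg15 and Usp18 differed between the sets in the same direction: Isg15 rose by 0.37 among numbers 1 to 3 and changed by -1.11 among numbers 4 to 6, and Usp18 rose by 0.84 and changed by -0.71, each past the threshold. H2-Aa went the other way, with a change of -1.31 among numbers 1 to 3, where wild-type libraries averaged 95.01 CPM and Bmal1-/- libraries 40.4 CPM, and a difference of 0.13 (adjusted p = 0.742 by edgeR) among numbers 4 to 6, where they averaged 42.5 and 54.4 CPM. The summed macrophage markers had medians of 540.7 CPM in the wild type and 329.4 CPM in Bmal1-/- livers among numbers 1 to 3, and of 340.5 and 317.4 CPM among numbers 4 to 6. Their part in the H2-Aa result was not tested. H2-K1 fell in both sets (-0.93 and -0.55), as did H2-D1 (-0.69 and -0.32), Ifit3 (-0.44 and -0.98) and Irf7 (-0.39 and -0.84), and these 4 members are the ones past the threshold and of the same sign in both. Cd74 fell among numbers 1 to 3 (-0.95) and had a difference of -0.55 (adjusted p = 0.0993 by edgeR) among numbers 4 to 6.

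**Figure D2:**
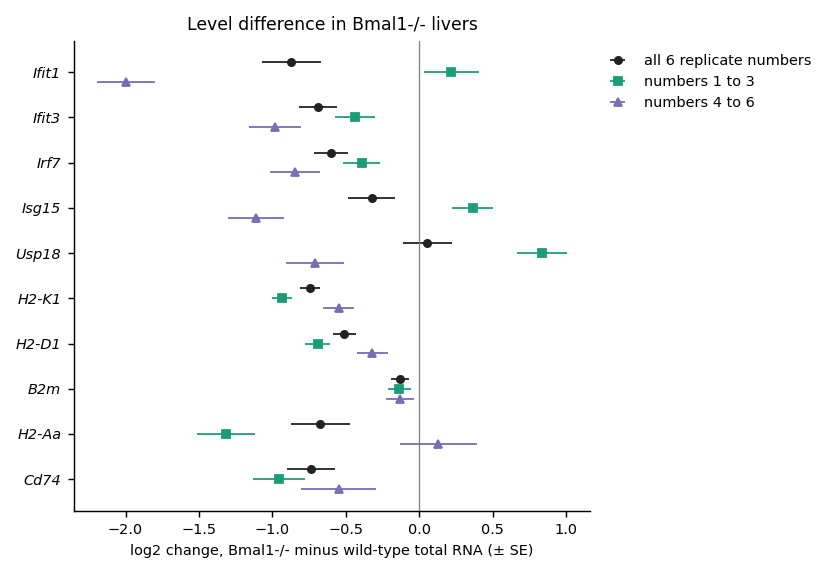
Difference in level between Bmal1-/- and wild-type total RNA (x axis, log2, ± SE) for each gene (y axis), from all libraries (circles), from replicate numbers 1 to 3 (squares) and from numbers 4 to 6 (triangles). H2-K1, H2-D1, Ifit3 and Irf7 lie below 0 in all 3, whereas Ifit1, Isg15 and Usp18 lie above 0 in numbers 1 to 3 and below 0 in numbers 4 to 6.

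Other genes of the same pathways were counted beside the background of 22.4% lower and 21.7% higher. Of 47 other interferon-induced genes tested, 25 were lower, 3 higher and 19 not past the threshold, and their median change was -0.29 (log2) against -0.001 for all genes tested. Zbp1, a sensor of nucleic acids, changed by -1.09 (SE 0.16) and Cxcl10, a chemokine that draws T cells, by -1.01 (SE 0.20), whereas Ly6e, a surface protein that alters virus entry, rose by 1.15 (SE 0.09) and Mx2, an antiviral GTPase, by 0.97 (SE 0.14). Of 20 other class I genes, 10 were lower and 1 (Canx, a chaperone of the endoplasmic reticulum) higher, with a median of -0.27; the class I-like heavy chains H2-Q1 (-1.65) and H2-Q7 (-1.16) changed most. Of 8 other class II genes, 6 were lower and 1 (Ctsl, a lysosomal protease) higher, with a median of -0.56, and H2-Ab1, the partner chain of H2-Aa, changed by -0.81 (SE 0.17). Of 17 receptors and signalling genes 5 were lower and 1 higher (Ifnar2, a chain of the type I interferon receptor, by 0.35, SE 0.06), with a median of -0.12. The sets of replicate numbers gave different counts. The background of 22.4% and 21.7% belongs to the fit of all 72 libraries. The shares of all genes called within each set are not given here, so the counts by set have no background. Of the other interferon-induced genes 15 were lower and 9 higher within numbers 1 to 3, and 28 lower and 2 higher within numbers 4 to 6. The class I genes had 12 lower and 3 higher in the former and 7 lower and 0 higher in the latter, the class II genes 6 lower and 1 higher against 0 lower and 1 higher, and the receptors and signalling genes 5 lower and 2 higher against 2 lower and 1 higher.

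No 24-hour rhythm was called in any member, in any of the 4 series. A rhythm was tested as a cosine and sine of 24 h with edgeR's quasi-likelihood test, and called at an adjusted p under 0.05 over all genes. In wild-type total RNA 0 of 10 members were called, against 18.9% of all genes. In nuclear RNA 0 of 9 were called, against 5.99%, with Ifit1 under the minimum of a mean of 10 counts. In polysomal RNA 0 of 10 were called, against 7.9%, and in Bmal1-/- total RNA 0 of 10, against 0.00825%. At an unadjusted p under 0.05 the numbers of members were 0, 0, 1 and 0 in the same order, and DESeq2 called 0 in each. The fitted peak-to-trough difference in wild-type total RNA ran from 0.21 (H2-K1) to 0.60 (Isg15) on the log2 scale. Isg15 had the lowest p of the 10 members there (adjusted p = 0.218 by edgeR). Rhythm did not differ past the threshold between the genotypes in any member (0 of 10, against 5.11% of all genes), nor between nuclear and total (0 of 10, against 0%) or polysomal and total RNA (0 of 10, against 0%), with 0 members at an unadjusted p under 0.05 in edgeR and 0 by DESeq2 in each.

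The member nearest to a rhythm was Ifit1 in polysomal RNA, with a fitted peak at ZT4.9, a peak-to-trough difference of 1.44 on the log2 scale and an adjusted p of 0.1 by edgeR. Its time-point means there ran from 6.73 ± 2.98 CPM at ZT2 (SD, n = 6) to 1.27 ± 0.656 CPM at ZT18, with 2.67 CPM as the lowest library at ZT2 and 2.37 CPM as the highest at ZT18. The 6 libraries at those 2 times thus did not overlap. The times were picked as those of the highest and lowest mean, so this adds nothing to the rhythm test. It passed the threshold under 4 other settings, among them without the 4 Xist-positive libraries (1.61, adjusted p = 0.0409 by edgeR). ZT18 also held the lowest of the 6 time-point means of Ifit1, Ifit3, Isg15 and Usp18 in 4 of 4 series. In Bmal1-/- RNA that rests on the libraries numbered 5 and 6 at ZT18, which were low in all 4 genes (Ifit3 at 0.749 and 1.73 CPM, against 4.06 to 8.49 CPM in the other 4 libraries). Without them the Ifit3 mean at ZT18 was 5.83 CPM and that at ZT10 5.40 CPM, and ZT18 was the lowest in 3 of 4 series for each of the 4 genes. In wild-type total RNA, Ifit3 averaged 5.16 CPM at ZT18 and 10.5 CPM at ZT22, Isg15 7.88 CPM at ZT18 and 15.2 CPM at ZT6, and Usp18 2.38 CPM at ZT18 and 4.35 CPM at ZT10. With time as a factor of 6 levels rather than a cosine, chosen after the data had been seen, Ifit3 in wild-type total RNA had an adjusted p of 0.0804 by edgeR, and 0 members passed the threshold in any series. The low at ZT18 was not particular to these 4 genes, and in wild-type total RNA every member had its lowest mean there. How many of all genes are lowest at ZT18 was not counted, so these counts are no result about the members. For H2-K1, H2-Aa and Cd74 ZT18 was the lowest in 3 of 4 series, with or without Bmal1-/- numbers 5 and 6 at ZT18. For Irf7 and B2m it was the lowest in 2 of 4 series, and for H2-D1 in 1.

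Other genes of these pathways were counted in wild-type total RNA beside the background of 18.9% rhythmic, and a share near that is no result about a list. Among 47 other interferon-induced genes 7 were called (Ifi47, Ifih1, Irf1, Rtp4, Rsad2, Xaf1 and Irf9), with peaks between ZT1.7 (Rsad2) and ZT7.9 (Ifih1). Irf1, a transcription factor that also drives class I genes, had a peak-to-trough difference of 0.64 with a peak at ZT3.2 (adjusted p = 0.00686 by edgeR). Of 21 other class I genes 5 were called, with the chaperone Calr at the lowest adjusted p (0.000174 by edgeR, peak ZT23.1), and 0 of 8 other class II genes. In Bmal1-/- total RNA 0 genes of these lists were called, against 0.00825% of all genes.

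Nuclear RNA held the class I genes at higher levels than total RNA and some of the interferon-induced genes at lower levels. H2-K1, H2-D1, B2m and Cd74 were higher, 4 of 10 members against 41.6% of all 11864 genes tested, and Ifit1, Ifit3 and Isg15 were lower, 3 of 10 against 42.1%. Those shares lie near the background, since most genes differ between a nuclear and a total preparation. The values compare shares of each library, not amounts per cell. This comparison, the polysomal one and that of the genotypes share the 36 wild-type total libraries.

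H2-K1 ran from 683.3 through 1968.3 to 3743.8 CPM in nuclear RNA, with 23 of 36 nuclear libraries above the highest total library, and rose by 1.16 (log2, SE 0.10, adjusted p = 3.42e-17 by edgeR). B2m ran from 1642.9 through 5562 to 12747.1 CPM in nuclear RNA and from 2478.3 to 5766.7 CPM in total RNA, with a rise of 0.72 (SE 0.09). H2-D1 averaged 498.0 ± 119.3 CPM in nuclear and 366 ± 85.6 CPM in total RNA, a smaller rise of 0.41 (SE 0.09, adjusted p = 2.06e-05 by edgeR). The class II pair did not move together: Cd74 rose by 0.73 (SE 0.17, adjusted p = 7.78e-05 by edgeR), from a median of 17.1 to one of 29.5 CPM, while H2-Aa had medians of 56.9 and 45.7 CPM and a difference of -0.30 (SE 0.20, adjusted p = 0.155 by edgeR), which passed without the libraries numbered 3 (-0.46, adjusted p = 0.0319 by edgeR).

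Ifit1 was the member with the lowest nuclear share. It ran from 0.592 through 1.94 to 10.95 CPM in nuclear RNA, 35 of 36 nuclear libraries lay below the median of total RNA, and the change was -1.52 (log2, SE 0.19, adjusted p = 1.76e-11 by edgeR), a 2.87-fold lower level. The mean count behind the nuclear value was 9.06 per library. Isg15 averaged 6.88 ± 3.73 CPM in nuclear RNA, a change of -0.98 (SE 0.14), and Ifit3 6.53 ± 3.14 CPM, a change of -0.56 (SE 0.13). Irf7 (20.4 ± 7.33 CPM, 0.07, SE 0.11, adjusted p = 0.585 by edgeR) and Usp18 (3.93 ± 2.58 CPM, 0.03, SE 0.18, adjusted p = 0.889 by edgeR) did not pass the threshold. None of the nuclear differences of the members differed between numbers 1 to 3 and 4 to 6 by edgeR (0 of 10, against 1.8% of all genes, with 1 member at an unadjusted p under 0.05; this test was not run with DESeq2). All 7 called members had the same sign and passed the threshold in both sets.

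Among other genes of the pathways, with 41.6% of all genes higher and 42.1% lower, 17 of 46 interferon-induced genes were higher and 24 lower in nuclear RNA (median -0.31 on the log2 scale, against -0.007 for all genes). The extremes were Bst2, a membrane protein that tethers budding virus (1.91, SE 0.11), and Iigp1, a GTPase of the interferon-induced immunity family (-2.84, SE 0.09). Tapbp, which loads peptides onto class I molecules, rose by 2.14 (SE 0.10) among 9 higher and 5 lower of 20 class I genes, and H2-Ab1 by 1.02 (SE 0.18) among 4 higher and 4 lower of 8 class II genes. Of 17 receptors and signalling genes, 5 were higher and 4 lower.

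**Figure D3:**
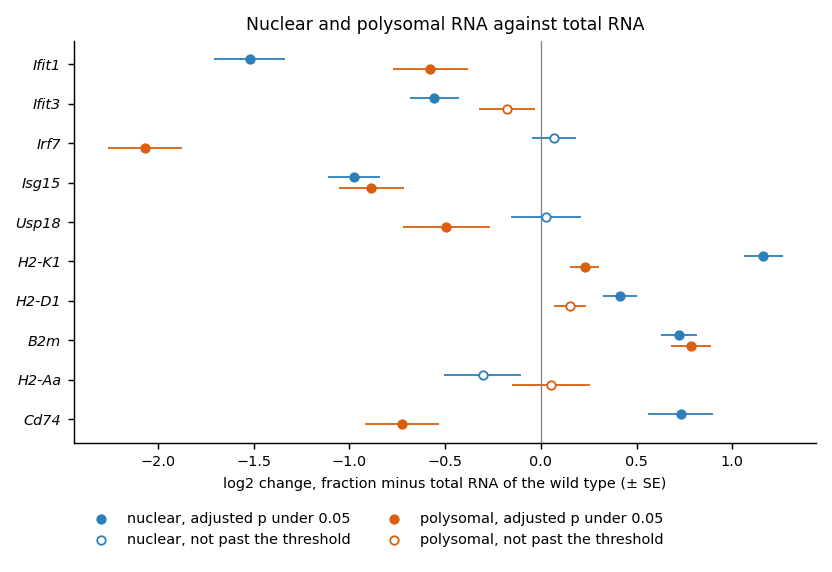
Difference in level of nuclear (blue) and polysomal (orange) against total RNA of the wild type (x axis, log2, ± SE) for each gene (y axis); filled points passed an adjusted p of 0.05. H2-K1 and B2m lie above 0 in both fractions, Ifit1 and Isg15 below 0 in both, and Irf7 is at 0.07 in nuclear and -2.07 in polysomal RNA.

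Irf7 stood out among the members for its low level in polysomal RNA. It ran from 0 through 4.21 to 15.9 CPM in the 36 polysomal libraries and from 7.34 through 18.2 to 48.9 CPM in total RNA, and it was listed at 0 counts in 2 polysomal libraries. As many as 30 of 36 polysomal libraries lay below the lowest total library and 36 of 36 below the total median. The change was -2.07 (log2, SE 0.19, adjusted p = 3.23e-15 by edgeR), a 4.19-fold lower level, and was -1.80 among numbers 1 to 3 and -2.48 among numbers 4 to 6. In all, 5 of 10 members were lower (Irf7, Isg15, Cd74, Ifit1 and Usp18), against 37.6% of all 11556 genes tested, and 2 were higher (B2m and H2-K1), against 38.4%.

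Isg15 averaged 7.38 ± 4.66 CPM in polysomal RNA, with a change of -0.89 (log2, SE 0.17, adjusted p = 4.82e-06 by edgeR) and 14 of 36 libraries below the lowest total library. Ifit3 averaged 8.35 ± 4.69 CPM, and its difference of -0.18 (SE 0.15) missed the threshold with an adjusted p of 0.263 by edgeR. Ifit1 changed by -0.58 (SE 0.20, adjusted p = 0.00617 by edgeR) and Usp18 by -0.49 (SE 0.23, adjusted p = 0.0421 by edgeR). Taken by number, their differences were 0.04 and 0.38 among numbers 1 to 3, neither past the threshold. Among numbers 4 to 6 they were -1.13 and -1.47. Polysomal numbers are not tied to those of total RNA in the labels, so this split may set unmatched libraries side by side and cannot decide either call. Leaving out the libraries numbered 4 ended the Ifit1 call (-0.42, adjusted p = 0.0844 by edgeR), and leaving out those numbered 4, 5 or 6 ended the Usp18 call (adjusted p of 0.0799, 0.37 and 0.425). So did leaving out wild-type total RNA at ZT14 number 6 (-0.44, adjusted p = 0.0708 by edgeR). With the number within each time as a block, Usp18 was not past the threshold (-0.58, adjusted p = 0.0806 by edgeR). Same-numbered polysomal and total libraries did not vary together (mean correlation -0.13, 0 of 36 closest to their own number), so that block cannot decide the call.

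B2m ran from 2313 through 6287.1 to 10561.6 CPM in polysomal RNA, with 21 of 36 polysomal libraries above the highest total library, and rose by 0.78 (log2, SE 0.11, adjusted p = 6.63e-10 by edgeR). The 6 polysomal libraries numbered 1 stood apart in this gene: they were the lowest at 6 of 6 times, at 2313 to 2906 CPM, where the other 30 held at least 3993.3 CPM, and without them the rise was 0.91 (SE 0.07). H2-K1 averaged 1079.5 ± 298.3 CPM against 869 ± 189 in total RNA and rose by 0.23 (SE 0.08, adjusted p = 0.00519 by edgeR), a call that was lost with median-ratio scaling (0.14, adjusted p = 0.0761 by edgeR) and with DESeq2 (0.14, adjusted p = 0.0647). H2-D1 averaged 431.4 ± 132.6 CPM, and its difference of 0.15 (SE 0.08) had an adjusted p of 0.0927 by edgeR; it passed the threshold without the wild-type total library at ZT2 number 4 (0.19, adjusted p = 0.0291 by edgeR) and without the libraries numbered 1, 2 or 3 (0.24, 0.22 and 0.23). Markers of red blood cells moved with the class I rises: 4 of 4 were higher in polysomal RNA, with a median change of 1.96, and none was at 0. Their summed level ran from 526.8 to 13012.6 CPM in total and from 2112.8 to 20686.2 CPM in polysomal RNA, and their part in the polysomal values was not tested.

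H2-Aa had nearly the same mean in polysomal (75.4 ± 45.3 CPM) and total RNA (68.8 ± 40.3 CPM), with a difference of 0.05 (log2, SE 0.20, adjusted p = 0.819 by edgeR). The sets of replicate numbers differed in both kinds of RNA. The labels do not tie a polysomal number to the same number of total RNA, so the sets compared need not be matched. Polysomal H2-Aa averaged 42.9 ± 22.4 CPM among numbers 1 to 3 and 107.9 ± 38.5 CPM among numbers 4 to 6 (SD, n = 18), while total H2-Aa averaged 95.01 ± 35.4 and 42.5 ± 25.1 CPM. Polysomal numbers 1 to 3 thus lay near total numbers 4 to 6. Taken by number, the difference was -1.15 in the former and 1.21 in the latter, both past the threshold. Summed macrophage markers had medians of 310.6 and 508.4 CPM in the same 2 sets of polysomal libraries, and 540.7 and 340.5 CPM in total RNA, and their part in the H2-Aa result was not tested. In all, the polysomal difference itself differed between the sets in 5 of 10 members (Ifit1, Usp18, H2-D1, B2m and H2-Aa), against 25.1% of all genes tested by edgeR. B2m rose in both sets (0.49 and 0.99), whereas H2-D1 changed by -0.21 in numbers 1 to 3 and rose by 0.47 in numbers 4 to 6.

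Cd74 depended on how the reads were assigned. From gene counts it ran from 0.246 through 10.45 to 37.6 CPM in polysomal RNA, a change of -0.73 (log2, SE 0.19, adjusted p = 0.000666 by edgeR). Its single polyadenylation site, however, held more counts than the gene itself in 36 of 36 polysomal libraries, with 118.0 counts per library at the site and 72.5 for the gene, a ratio of 1.63 that was 0.94 in the other 3 series. When the site was fitted in place of the gene, the difference was -0.14 (SE 0.17, adjusted p = 0.475 by edgeR), with a median of -0.15 over all sites. B2m sites exceeded the gene count in 36 of 36 polysomal libraries too, by a ratio of 1.08, and its main site still rose (0.65, SE 0.10). The H2-K1 site, at 0.001 (SE 0.07, adjusted p = 0.988 by edgeR), was not past the threshold. The Ifit1 site with 95.7% of that gene's polysomal site counts had a difference of 0.45 (SE 0.25, adjusted p = 0.099 by edgeR). That value was not past the threshold and had the opposite sign to the gene count (-0.58). The Ifit1 sites held 0.345 of the gene counts in total RNA and 0.511 in polysomal RNA. In the nuclear and genotype comparisons the sites of H2-K1 (1.47 and -0.73) and Cd74 (1.05 and -0.71) gave the calls of the gene counts. The major sites of Irf7 and Ifit3 did not in nuclear RNA. That of Irf7 rose by 0.41 (SE 0.11, adjusted p = 0.000799 by edgeR), where the gene count gave 0.07 and no call. That of Ifit3, with 83.5% of its nuclear site counts, was at -0.22 (SE 0.15, adjusted p = 0.169 by edgeR) and was not called. The other site of Ifit3 changed by -1.84 (SE 0.18), and the gene count gave -0.56 and a call.

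In the pathways around the members, with 38.4% of all genes higher and 37.6% lower, 10 of 46 other interferon-induced genes were higher and 25 lower in polysomal RNA (median -0.35 on the log2 scale, against 0.01 for all genes). Ifitm2, which blocks virus entry, rose by 2.16 (SE 0.08), and Xaf1, an inducer of cell death, changed by -2.54 (SE 0.28). Psmb9, a subunit of the immunoproteasome, rose by 1.64 (SE 0.14) among 6 higher and 6 lower of 19 class I genes. H2-DMa, which helps to load class II molecules, rose by 0.85 (SE 0.19) among 5 higher and 1 lower of 8 class II genes. Of 17 receptors and signalling genes 6 were higher and 3 lower, among them Irf3 (-1.37, SE 0.14), which like Irf7 switches on type I interferon genes.

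Of the members, 3 end at more than 1 polyadenylation site often enough to test which site was used. Sites were tested where a gene had a mean of at least 50 site counts and 2 or more sites with at least 5% of them, which left 7 of the 19 sites of the members: 2 of Ifit3, 2 of Irf7 and 3 of H2-D1. In Bmal1-/- against wild-type total RNA 0 of the 7 differed in usage by edgeR, against 8.66% of all sites, with 2 at an unadjusted p under 0.05 (DESeq2 was not run on usage). In nuclear against total RNA 6 of 7 differed, against 78.8% of all sites, and in polysomal against total RNA 6 of 7, against 70.4%. Shares that high in the background mean that the members did as most sites did.

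Ifit3 ended less often at its far site in nuclear RNA. The near site lies at chr19:34588625-34588735, ending 247 bases before the end of the RefSeq gene, and the far site at chr19:34588934-34588982, at that end. The far site took 38.0% ± 7.5 of the site counts in wild-type total RNA (SD, n = 36), 16.9% ± 9.2 in nuclear RNA (n = 35, as 1 library had no count), 29.2% ± 14.5 in polysomal and 32.0% ± 12.1 in Bmal1-/- total RNA. Its usage changed by -1.20 in nuclear (log2, SE 0.13, adjusted p = 7.85e-13 by edgeR) and by -0.41 in polysomal RNA (SE 0.13, adjusted p = 0.00436 by edgeR), and the near site rose by 0.40 and 0.20. The nuclear change held in both sets of numbers (-1.27 and -1.14), while the polysomal one passed the threshold among numbers 1 to 3 (-0.65) but not 4 to 6 (-0.25, adjusted p = 0.266 by edgeR), nor without the libraries numbered 1 (-0.30, adjusted p = 0.06 by edgeR). The Ifit3 sites held more counts than the gene, by a ratio of 1.23 in wild-type total RNA, so some reads at these sites were not assigned to Ifit3 in the gene table.

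In H2-D1, sites were numbered 1 to 4 from 5′ to 3′, of which the last 3 were tested. Site 2, at chr17:35267082-35267265, took 28.0% ± 6.9 of the counts in wild-type total RNA and 16.3% ± 7.9 in nuclear RNA, a change in usage of -0.79 (log2, SE 0.14, adjusted p = 1.78e-06 by edgeR). Site 4, at chr17:35267409-35267502 and the farthest, took 28.8% ± 4.2 in total, 37.1% ± 9.3 in nuclear and 36.3% ± 6.7 in polysomal RNA, with rises of 0.36 (SE 0.07) and 0.34 (SE 0.06). Its rises passed the threshold in both sets of numbers. Site 1, at chr17:35266279-35266310 and 1187 bases before the gene's end, took 0.929% ± 0.391 in total RNA, 7.79% ± 5.51 in nuclear, 7.69% ± 6.27 in polysomal and 1.68% ± 1.27 in Bmal1-/- total RNA. It was under the 5% minimum of the usage test, and its counts rose by 3.66 in nuclear (SE 0.21) and 2.76 in polysomal RNA (SE 0.23) when each site was fitted by itself. The site 2 change in polysomal RNA (-0.27, SE 0.11, adjusted p = 0.0203 by edgeR) was lost without the libraries numbered 1, 2 or 3 (adjusted p of 0.0588, 0.202 and 0.0565).

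In Irf7 the minor site, at chr7:141263459-141263504 and 276 bases before the gene's end, took 12.8% ± 4.7 of the counts in wild-type total RNA, 9.15% ± 7.08 in nuclear, 6.12% ± 8.29 in polysomal (n = 34, as 2 libraries had no count) and 9.59% ± 5.13 in Bmal1-/- total RNA. Its usage changed by -0.51 in nuclear (log2, SE 0.18, adjusted p = 0.00914 by edgeR) and by -1.60 in polysomal RNA (SE 0.37, adjusted p = 0.000116 by edgeR). The polysomal value rests on a mean of 2.14 counts per library at this site, and its major site did not change past the threshold (0.05, adjusted p = 0.391 by edgeR). H2-K1, H2-Aa, Isg15 and Cd74 have 1 site each, and 99.6% of the B2m counts in total RNA came from 1 site.

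**Figure D4:**
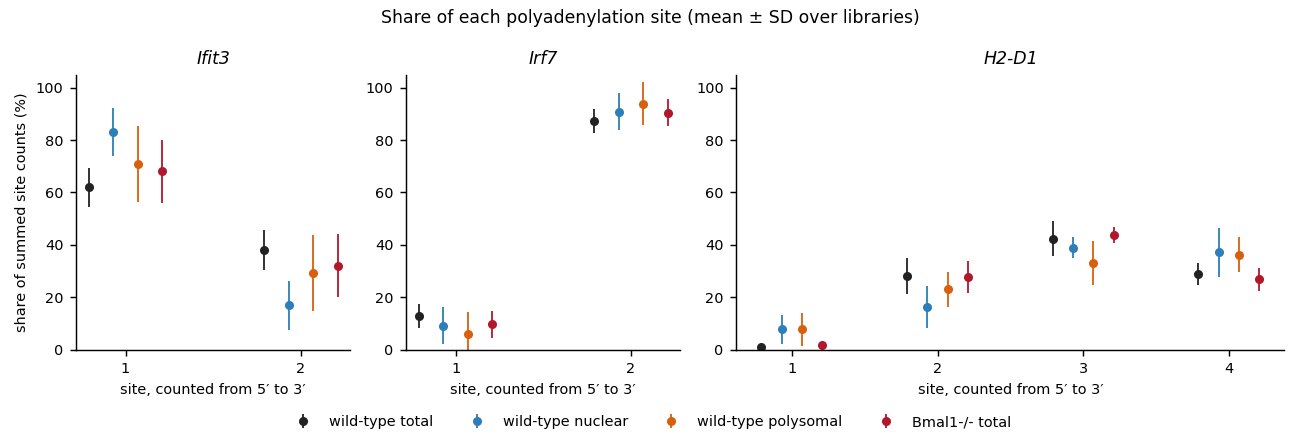
Share of each polyadenylation site in the summed site counts of its gene (y axis, percent, mean ± SD over libraries) for the sites of Ifit3, Irf7 and H2-D1, numbered from 5′ to 3′ (x axis), in 4 kinds of RNA. The far site of Ifit3 falls from 38.0% in wild-type total RNA to 16.9% in nuclear RNA, and site 4 of H2-D1 rises from 28.8% to 37.1%.

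From library to library, some members varied together. After the mean of each of the 24 groups was taken away from log2 CPM, Pearson's r between members was computed over the libraries of all 4 series; it is given as a description, since libraries of a group share depth and composition. The 10 pairs of interferon-induced genes had r from 0.105 (Ifit3 and Usp18) to 0.55 (Ifit1 and Isg15), with a median of 0.35. H2-K1 and H2-D1 had 0.715, and H2-Aa and Cd74 0.63. The 15 pairs of an interferon-induced with a class I gene had r between -0.175 and 0.22, and their median was 0.03. The 10 pairs of an interferon-induced with a class II gene had r between -0.09 and 0.48 (Irf7 and Cd74), with a median of 0.18. The 6 pairs of a class I with a class II gene had r from 0.10 (B2m and Cd74) to 0.68 (H2-D1 and H2-Aa), with a median of 0.43. In the 36 wild-type total libraries alone the medians were 0.36 within the interferon-induced genes, 0.04 between them and class I genes, -0.06 between them and class II genes, and 0.61 between class I and class II genes, but single pairs moved, with 0.014 for Ifit1 and Irf7, 0.073 for Irf7 and Isg15 and 0.72 for B2m and Cd74.

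**Figure D5:**
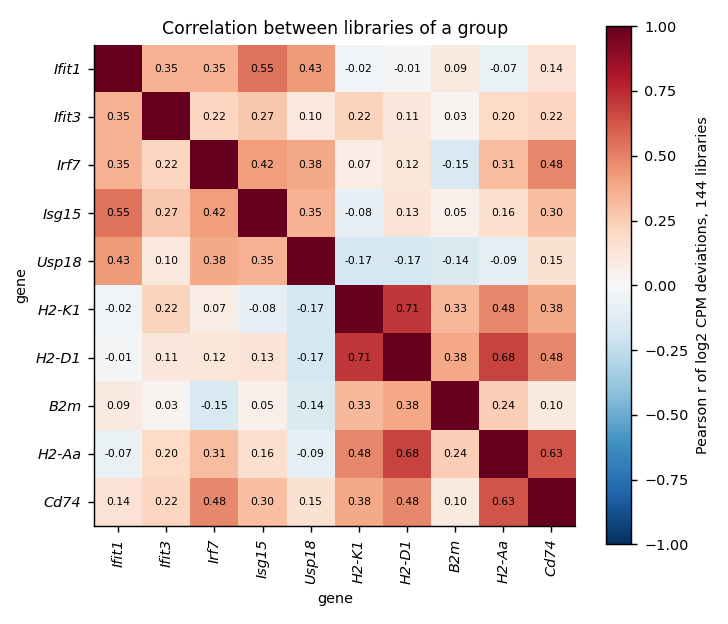
Pearson correlation (colour and number in each cell) between the 10 genes, listed on both axes, over the libraries of all 4 series after removal of the group means. The 10 pairs of interferon-induced genes have a median of 0.35, the 6 pairs of a class I with a class II gene 0.43, the 15 pairs of an interferon-induced with a class I gene 0.03 and the 10 pairs of an interferon-induced with a class II gene 0.18.

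Among the 11849 genes compared in that way, the 3 most like H2-Aa were H2-Eb1 (0.87), H2-Ab1 (0.86) and H2-DMa (0.72), which are class II genes, and those most like Cd74 were H2-Ab1 (0.81), H2-Eb1 (0.75) and H2-Aa (0.63). H2-D1 was most like H2-Q7 (0.72), H2-K1 and H2-Aa, and H2-K1 most like H2-D1, H2-Q7 (0.68) and Scarb2 (0.57), a lysosomal membrane protein. Ifit1 was nearest to Isg15 (0.55), Ifi47 (0.52) and Apol9b (0.50), Ifit3 to Rsad2 (0.56), Pld4 (0.47) and Oas1g (0.46), Isg15 to Ifit1, Apol9b (0.52) and Sparc (0.52), and Usp18 to Apol9a (0.58), Gm13522 (0.57) and Iigp1 (0.54). Irf7 was nearest to Cope (0.60), Taf10 (0.59) and Trex1 (0.59), and B2m to Chchd2 (0.64), Mrps23 (0.63) and Itfg1 (0.63), of which none is in the lists of interferon or presentation genes. From the 36 wild-type total libraries alone, 7 of these 30 neighbours were the same.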

How the data were processed

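RNA of 144 mouse liver libraries was measured by 3′ mRNA sequencing. Reads were aligned with STAR 2.4.2a to mm10 (GRCm38.p5), and HOMER and edgeR were used, per the submitters' processing notes. The authors deposited raw counts per gene and raw counts per polyadenylation site, which were used here, and TMM-scaled tables and site lists, of which the filtered list served to choose sites. How reads shared by near-identical genes were counted was not given in the sources used here. Groups and replicate numbers came from the sample titles.

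Gene counts were scaled by TMM and fitted with edgeR 4.0.16 (R 4.3.3; quasi-likelihood, robust), keeping genes that averaged 10 or more counts, with 72 libraries and 12 groups of series and time in a level fit; p-values were adjusted over all genes tested. Each SE is the one implied by the test's p-value. Site usage was fitted with the summed site counts of the gene plus 0.5 as offset. A site was given to a RefSeq gene when it lay within its span or up to 1000 bases beyond, and genes whose site counts, over all libraries, were under 0.3 or above 1.5 times the gene count were dropped. Of 360 within-group pairs of libraries 0 were identical, and the pair most alike had a chi-square of 4.03 per degree of freedom. Alternatives were DESeq2 1.42.0, median-ratio scaling, other count minimums, all series in 1 fit, each set of 3 replicate numbers, each number left out, and a replicate block; left-out libraries, time as a factor, the test between sets of numbers and site-level fits were added after the data were seen. The scripts were tested on simulated data. Depth was 1662449 to 14281894 counts per library; a value from few counts carries counting error on top of the spread between libraries.

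The members and the lists of related genes and markers were chosen with earlier results of these data known. From each list the text names up to 2 of the largest rises and falls past the threshold, and for each member the 3 genes of highest correlation (log2 CPM, prior count 2). Of the lists of markers, those of sinusoidal endothelial cells (median change in Bmal1-/- livers -0.14 on the log2 scale), stellate cells (0.22), cholangiocytes (under the minimum) and adipocytes (1 gene tested, -6.37) are given here only.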

Additional observations from a re-analysis of the deposited data

Results flagged for a closer look

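Within groups of 6 libraries, the highest or lowest library stood apart from the rest (a gap of more than 0.625 of the group's range) in 20 of 240 groups of a member, a series and a time, where chance alone gives about 1 in 20. Nuclear RNA at ZT22 number 5 was high in Ifit1 (10.95 CPM), Ifit3 (13.94 CPM) and Usp18 (7.466 CPM), and it is 1 of the 4 libraries with Xist, at 4362.9 CPM. Of the other libraries with Xist, total RNA at ZT22 number 5 was high in Ifit3 (20.03 CPM) and polysomal RNA at ZT22 number 1 in Isg15 (15.15 CPM). Total RNA at ZT2 number 4 was high in H2-K1 (1685.7 CPM) and B2m (5766.7 CPM), and total RNA at ZT14 number 6 in Irf7 (48.87 CPM). Bmal1-/- RNA at ZT2 number 5 was high in both class II genes, H2-Aa (74.21 CPM) and Cd74 (24.16 CPM).

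The other 10 were in 10 different libraries. Ifit3 was high in total RNA at ZT10 number 3 (15.85 CPM), and Irf7 was low in nuclear RNA at ZT10 number 1 (11.96 CPM). H2-D1 was high in nuclear RNA at ZT6 number 2 (665.7 CPM) and ZT22 number 3 (801.3 CPM), and in Bmal1-/- RNA at ZT14 number 5 (412.8 CPM). B2m was low in polysomal RNA at ZT14 number 1 (2313.0 CPM) and high in Bmal1-/- RNA at ZT18 number 1 (4115.9 CPM). The former is not a lone library: polysomal number 1 had the lowest B2m of its 6 libraries at 6 of 6 times (2313 to 2906 CPM, against 3993.3 CPM or more in the other 30), and it had the highest Isg15 at 5 of 6 times and the highest Irf7 at 4 of 6. H2-Aa was high in nuclear RNA at ZT14 number 3 (119.7 CPM). Cd74 was high in total RNA at ZT10 number 5 (36.69 CPM) and in polysomal RNA at ZT10 number 1 (37.62 CPM).

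The difference between Bmal1-/- and wild-type total RNA was not the same in replicate numbers 1 to 3 and 4 to 6 for 5 members, by edgeR's test of the interaction (given as the log2 difference in numbers 4 to 6 minus that in numbers 1 to 3): Ifit1 (-2.213, adjusted p = 1.14e-07), Usp18 (-1.544, adjusted p = 3.21e-05), Isg15 (-1.478, adjusted p = 1.53e-05), H2-Aa (1.443, adjusted p = 0.00179) and H2-K1 (0.383, adjusted p = 0.0242). The same held of the difference between polysomal and total RNA for H2-Aa (2.380, adjusted p = 2.58e-09), Usp18 (-1.818, adjusted p = 0.000409), Ifit1 (-1.150, adjusted p = 0.00758), H2-D1 (0.705, adjusted p = 0.000135) and B2m (0.523, adjusted p = 0.0406). Both comparisons use the same wild-type total libraries, and the labels do not match their numbers to those of the other series. What sets the replicate numbers apart is not in the labels.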

How the results depend on the processing

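The sets of replicate numbers were the alternative that turned directions. Against wild-type total RNA, Bmal1-/- values reversed among numbers 1 to 3 in Ifit1 (0.22) and Isg15 (0.37) and among numbers 4 to 6 in Usp18 (-0.71) and H2-Aa (0.13); polysomal values reversed among numbers 1 to 3 in Ifit1 (0.043), Usp18 (0.38), H2-D1 (-0.21) and H2-Aa (-1.15). The cause was not tested. With 1 replicate number left out, 6 to 9 members were called in Bmal1-/-, 7 to 8 in nuclear and 5 to 8 in polysomal against total RNA, where the full data gave 7 each. The member sites called for usage fell from 6 to 3 in nuclear and in polysomal RNA with a minimum mean of 200 site counts, where fewer sites are tested, and to 3 in polysomal RNA among numbers 4 to 6. They ranged from 3 to 6 in polysomal RNA with a number left out, and from 0 to 1 in Bmal1-/- RNA. The count of rhythmic members in polysomal RNA was 1 (Ifit1) with all 4 series in 1 fit and 1 without the 4 libraries with Xist, and from 0 to 1 with a number left out. Over all genes, rhythm calls in wild-type total RNA ran from 622 to 3039 of the main 2260, in nuclear RNA from 174 to 996 of 669, in polysomal RNA from 115 to 2679 of 845 and in Bmal1-/- RNA from 0 to 10 of 1. Rhythm differences between Bmal1-/- and wild type ran from 189 to 842 of 617, and between polysomal and total RNA from 0 to 54 of 0. Usage calls ran from 526 to 1592 of 949 in Bmal1-/-, from 3039 to 7733 of 7638 in nuclear and from 3096 to 7370 of 7212 in polysomal RNA. Few counts limit Usp18 and Ifit1.

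Same-numbered libraries of nuclear and total RNA deviated together from their group means (mean correlation 0.343, above 0.1 in 34 of 36 pairs, 31 of 36 closest to their own number), which is a hint from the data and not from the labels; since 2 of the pairs were under 0.1, the nuclear numbers were not taken to pair the libraries. Polysomal (mean -0.13, above 0.1 in 1 of 36 pairs, 0 of 36 closest to their own number) and Bmal1-/- libraries (0.0696, 18 of 36 and 13 of 36) share only a number. With a replicate block in the level fits (the number within each time for the 2 fractions, the number alone for Bmal1-/-), 7 members were called in Bmal1-/-, 7 in nuclear and 6 in polysomal RNA, where Usp18 was lost. The block also gave 1 member site called for usage in Bmal1-/- RNA (Irf7 site 1, -0.41, adjusted p = 0.0282 by edgeR) and 1 rhythmic member in polysomal RNA (Ifit1, adjusted p = 0.0444 by edgeR), and it changed no other count of members.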
